A study of Mus musculus with 7 samples.

Results

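The genes described here are G0s2 and 8 genes that store triglyceride in lipid droplets or release it again: Pnpla2, Lipe, Mgll, Plin2, Abhd5, Lpl, Dgat1 and Dgat2. They are 9 of the 12393 genes that the platform table names singly on the array, and 16 probe sets read them. G0s2 was chosen by its measured values, which lay lower on the knockout arrays, and the other genes for their roles around it with those values already known. Differences between knockout and wild type are therefore given for these 9 genes as a description, with no test. The samples were left ventricles of 7 male mice aged 21 months, 1 array per mouse. The labels name 3 eNOS (-/-) mice, M4, M10 and M140, and 4 (+/+) mice, M23, M125, M128 and M158. eNOS is endothelial nitric oxide synthase, the product of Nos3, which makes nitric oxide in the lining of blood vessels. The labels give heart dysfunction of ageing (-/-) males as the reason for the comparison, and also a high mortality of these males by this age, so that the knockout mice were survivors. The deletion is present in every cell, and each array read whole ventricular tissue. A keyword names exercise, but the labels state no exercise, diet or fasting state of any mouse, and no strain.

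Heart muscle keeps a small store of triglyceride in lipid droplets, and fatty acids that enter the cell pass through this store before much of them is burned in mitochondria. DGAT1 and DGAT2 add the last fatty acid to make triglyceride, and PLIN2 coats the droplet. Adipose triglyceride lipase (ATGL, from Pnpla2) makes the first cut, with ABHD5 as its activator and G0S2 as its inhibitor. Hormone-sensitive lipase (Lipe) and monoglyceride lipase (Mgll) complete the release of fatty acids. Lipoprotein lipase (Lpl), made in heart muscle and moved to the capillary wall, frees fatty acids from circulating triglyceride.

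Each value is the deposited intensity of a probe set, a linear brightness. The array medians were 671 to 699, and the highest value that an array can give was 44145 to 45552. Differences are knockout minus wild type on the scale log2(intensity + 16), each with its standard error from limma, and they understate the change of dim probe sets. The filter for testing asked for a value above the 40th percentile of the array, which stood at 514 to 542, on 3 or more arrays. Of the 16 probe sets, 15 passed that filter, and every gene had at least 1 that passed. Of all 13836 tested probe sets, 0 had an adjusted p under 0.05 by limma (0%). At an unadjusted p under 0.05, 727 were lower (5.25%) and 909 higher (6.57%). The Nos3 probe set read 1145, 1414 and 1135 on the arrays labelled knockout, against 791, 1163, 872 and 1058 on the wild-type arrays. The labels do not say which part of Nos3 was disrupted, so this probe set does not check them. Atrial muscle genes were bright on some arrays: Myl7, an atrial myosin light chain, was at 17557 in knockout mouse M10 and 16097 in wild-type mouse M125, against 356 to 2926 on the other 5 arrays. The 5' control probe set of Gapdh, which is low where RNA is degraded, was at 4456 in wild-type M23 and 15460 in wild-type M158, against 23125 to 34559 elsewhere. Myl2, Myh6, Tnnt2 and Tnni3, markers of ventricular heart muscle, reached the upper limit on each of the 7 arrays. In whole tissue, fewer cells of a type and less RNA per cell cannot be told apart.

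The promoter windows of the 2 genes whose groups did not overlap, G0s2 and Plin2, are shown for their letters. Each runs from 250 bases before to 50 bases after the RefSeq start of the gene, in build GRCm38.p6, 5' to 3' on the gene's own strand. The G0s2 window lies at chr1:193273139-193273438 on the minus strand and the Plin2 window at chr4:86670010-86670309 on the minus strand. Capitals mark the E-box CACGTG and the nuclear receptor half-site AGGTCA, on either strand.
G0s2: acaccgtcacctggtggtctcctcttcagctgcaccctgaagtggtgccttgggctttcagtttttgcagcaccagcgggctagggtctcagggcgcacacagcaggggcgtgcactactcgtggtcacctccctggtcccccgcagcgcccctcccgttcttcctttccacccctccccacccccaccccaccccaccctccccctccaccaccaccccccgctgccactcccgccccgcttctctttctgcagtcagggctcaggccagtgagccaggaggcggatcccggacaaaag
Plin2: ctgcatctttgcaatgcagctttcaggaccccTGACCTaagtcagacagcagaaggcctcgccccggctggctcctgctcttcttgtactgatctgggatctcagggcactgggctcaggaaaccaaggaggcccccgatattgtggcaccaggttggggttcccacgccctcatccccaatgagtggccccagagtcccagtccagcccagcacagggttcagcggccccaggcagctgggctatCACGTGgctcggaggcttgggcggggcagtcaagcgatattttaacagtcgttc
The G0s2 window held neither motif, nor TATAAA, nor the cyclic AMP response element TGACGTCA. The Plin2 window held the half-site on its minus strand from base -218 and the E-box from base -4, counted back from the start. RefSeq windows were matched for 6 of the 9 genes, 8 windows in all. The E-box stood in 3 of the 8 windows, of Lipe, Mgll and Plin2, and in 7.15% of all 32851 windows of this length. The half-site stood in 2 of the 8, of Plin2 and Abhd5, and in 16.3% of all windows. A direct repeat of the half-site with 1 base between, the arrangement that PPAR receptors bind, was in 0 of the 8 and in 0.0396% of all windows. TATAAA and TGACGTCA were in 0 of the 8, against 13.6% and 1.79% of all. A match is a description of the letters and not a site, and the windows reach no enhancer. All 8 windows were rich in G and C, at 60% to 72.3%, against a median of 52.7% over all windows. The G0s2 window was at 66.7% and the Plin2 window at 60.7%.

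G0s2, the inhibitor of ATGL, read lower on each knockout array than on any wild-type array. Its probe set 1448700_at read 2208, 2760 and 2338 on knockout M4, M10 and M140, against 5288, 4993, 6496 and 6228 in wild-type mice M23, M125, M128 and M158. The knockout arrays averaged 2435 ± 289 (SD, n = 3) and the wild-type arrays 5751 ± 724 (SD, n = 4), a knockout to wild-type ratio of 0.423. The highest knockout array, M10, thus stood well under the lowest wild-type array, M125. The difference was -1.23 ± 0.15 on the log2 scale, and the arrays of each group differed little among themselves (SD of 0.17 on the log2 scale in the knockout and 0.18 in the wild type). It lay between -1.33 without knockout M10 and -1.17 without knockout M4. Within hybridization day 1, which held knockout M140 and wild-type M128, the difference was -1.47, from 1 array against 1. M128 read 2926 for Myl7 and 970 for the fat cell marker Car3, against 407 and 298 on M140. The atrial transcript Nppa and the fat cell marker Pparg went the other way, at 12669 and 772 on M128 against 45540 and 802 on M140. The part of tissue content in the day 1 difference was not tested. Without M10 and M125, the arrays with most atrial transcript, the G0s2 difference was -1.39. Without M23 and M158, the arrays of low 5' Gapdh signal and the only ones of day 4, it was -1.23.

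**Figure D1:**
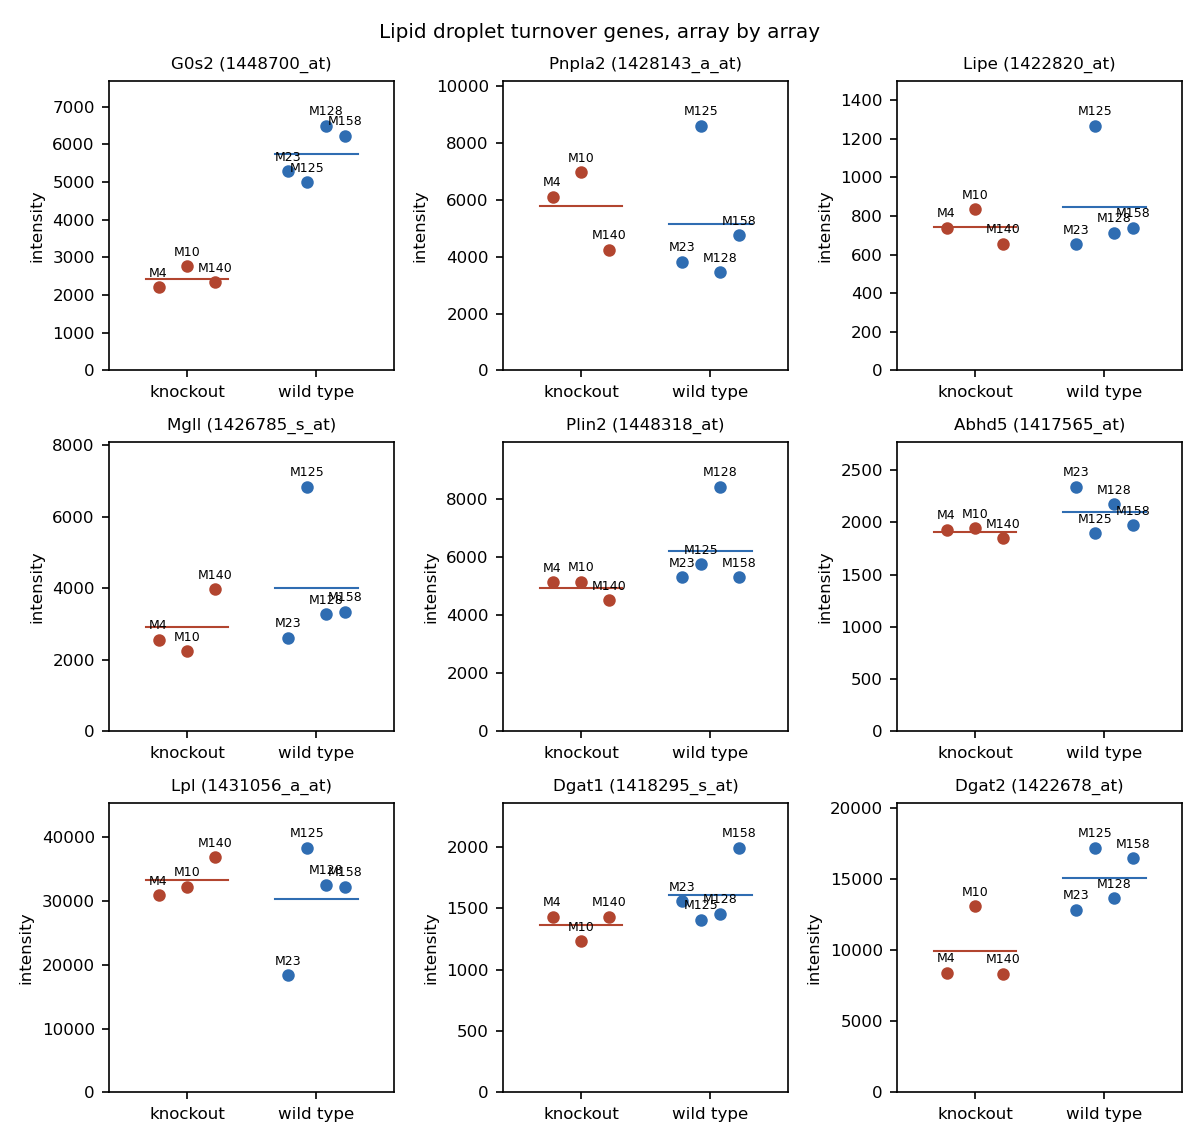
Intensity (vertical axis, linear, from 0) of 1 probe set for each of the 9 genes, the brightest below the upper limit, on every knockout array (red) and wild-type array (blue), with horizontal lines at the group means. The G0s2 groups stand apart, at 2208 to 2760 in the knockout and 4993 to 6496 in the wild type, while M125 is the highest array for Pnpla2, Lipe, Mgll, Lpl and Dgat2.

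Pnpla2, the lipase that G0S2 inhibits, did not share this separation. Its bright probe set 1428143_a_at read 6112, 6964 and 4248 on knockout M4, M10 and M140, against 3818, 8611, 3459 and 4750 in wild-type mice M23, M125, M128 and M158. The groups overlapped, with the wild-type arrays M125 and M128 as the highest and the lowest of all 7. The difference was 0.23 ± 0.33, and it was 0.51 without wild-type M125 and 0.07 without wild-type M128. The 2 highest arrays, M125 and M10, were also the 2 with the most Myl7. The part of atrial muscle in these levels was not tested. Without both arrays the difference was 0.36. The other probe set, 1428591_at, was dim on every array, at 437 to 440 in the knockout and 407 to 486 in the wild type, and did not pass the filter.

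Abhd5, the activator of the same lipase, was nearly level across the arrays. Its probe set 1417565_at read 1932, 1945 and 1847 in the knockout, against 2343, 1897, 2174 and 1973 in the wild type, a difference of -0.13 ± 0.11. Its second probe set, 1417566_at, read 1126 to 1195 in the knockout and 987 to 1204 in the wild type, a difference of 0.07 ± 0.09. The 2 probe sets thus differed in sign, each by little more than its standard error or less.

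The lipases of the later steps overlapped between the groups, with wild-type M125 above every other array. Lipe (1422820_at), whose product cleaves diglyceride, read 740, 836 and 657 in the knockout, against 655, 1269, 715 and 740 in the wild type. Apart from M125, all 6 arrays lay between 655 and 836. The difference was -0.13 ± 0.22, and 0.08 without M125. Mgll, whose product cleaves monoglyceride, had 4 tested probe sets. Its brightest, 1426785_s_at, is of a kind that can bind related transcripts and read 2567, 2237 and 3965 in the knockout, against 2618, 6840, 3274 and 3346 in the wild type. Its difference of -0.40 ± 0.34 was -0.11 without M125, 0.06 without M125 and M10, and 0.28 within day 1. The next, 1450391_a_at, read 2386, 2017 and 2386 in the knockout and 2347, 3462, 2131 and 2824 in the wild type, a difference of -0.23 ± 0.18. The 2 dim ones differed in opposite directions, 1453836_a_at by -0.18 ± 0.26 and 1431331_at by 0.28 ± 0.13. M125 was the highest array on 3 of the 4 Mgll probe sets, while 1431331_at was highest on knockout M10.

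Plin2, the droplet coat protein, was the second gene with groups that did not overlap, by a narrow margin. Its probe set 1448318_at read 5127, 5146 and 4503 in the knockout, against 5308, 5754, 8414 and 5308 in wild-type mice M23, M125, M128 and M158. The difference was -0.31 ± 0.19, and wild-type M128 stood farthest above the knockout arrays. Without M128 it was -0.15. Within day 1, whose wild-type array is M128, it was -0.90. The knockout arrays lay wholly below the wild-type arrays for 2 of the 15 tested probe sets, against 4.34% of all tested probe sets. They lay wholly above for 0 of the 15, against 4.97% of all. Because the choice of genes used this contrast, these counts are descriptions.

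Dgat2, an enzyme of the final step of triglyceride synthesis, read lower on 2 knockout arrays. Its bright probe set 1422678_at read 8430, 13112 and 8347 on knockout M4, M10 and M140, against 12880, 17241, 13689 and 16500 in the wild type. Knockout M10 lay just above the lowest wild-type array, M23, and the other 2 knockout arrays lay below all wild-type arrays. The knockout to wild-type ratio of means was 0.661, and the difference -0.62 ± 0.19, or -0.83 without M10. Within day 1 it was -0.71. The second Dgat2 probe set, 1422677_at, did not show this, at 2034, 2324 and 1936 in the knockout against 1771, 2777, 2329 and 1848 in the wild type, a difference of -0.04 ± 0.18. Dgat1, the other enzyme of this step, had 1 probe set, 1418295_s_at, of a kind that can bind related transcripts. It read 1432, 1232 and 1432 in the knockout and 1560, 1407, 1457 and 1995 in the wild type. Its groups overlapped, and the difference of -0.22 ± 0.14 was -0.11 without wild-type M158.

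Lpl gave no fold on its first probe set. 1415904_at was at the upper limit on all 7 arrays, so that only a bound is known in either group. The second, 1431056_a_at, read 30869, 32245 and 36830 in the knockout, against 18346, 38376, 32549 and 32245 in wild-type mice M23, M125, M128 and M158. Of the 7 arrays, 6 lay between 30869 and 38376 and only M23 lay lower. The difference was 0.18 ± 0.23, and -0.05 without M23, which was also the array with the lowest 5' Gapdh signal. The part of RNA quality in that value was not tested.

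**Figure D2:**
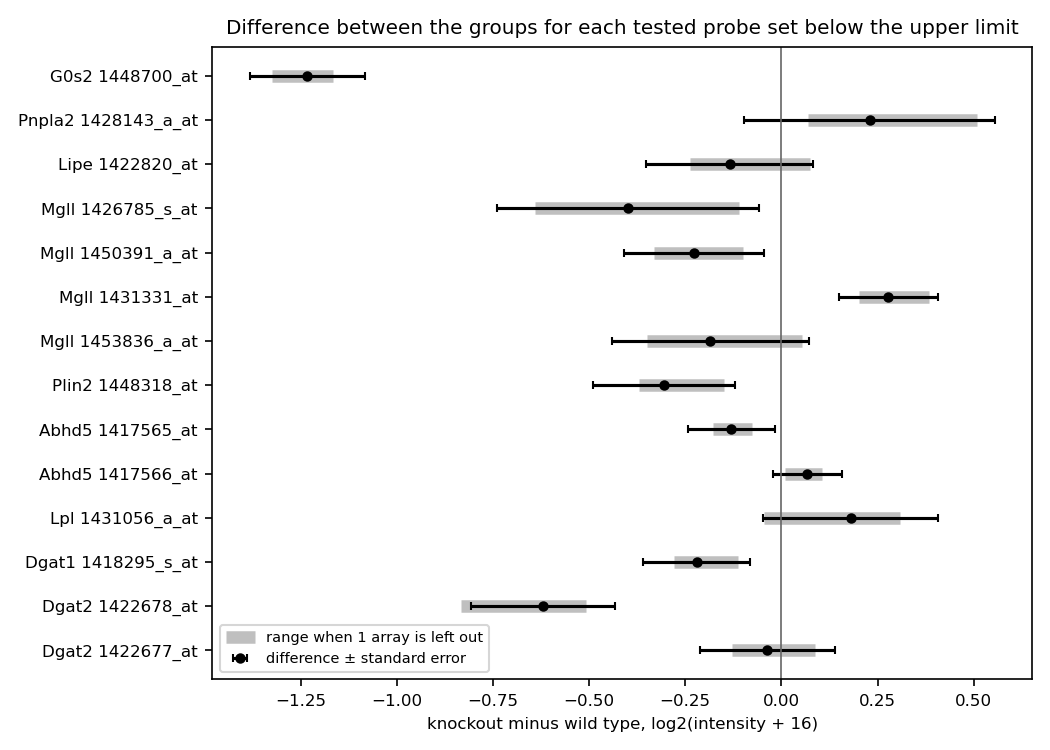
Difference between knockout and wild type (horizontal axis, log2(intensity + 16)) for the 14 tested probe sets that never reached the upper limit, with the standard error as a black bar and the range over leaving out each array in turn as a grey bar. The G0s2 difference, -1.23, lies far from 0 under every omission, Dgat2 1422678_at follows at -0.62, and Lipe, Mgll 1453836_a_at, Lpl and Dgat2 1422677_at cross 0 when 1 array is left out.

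Among these 14 probe sets, 10 were lower and 4 higher in the knockout mean, with a median difference of -0.16. Over all 13836 tested probe sets, 6992 were lower and 6844 higher, with a median of -0.0023. For all 14 except G0s2, Dgat2 1422678_at and Mgll 1431331_at, the SD among the wild-type arrays was larger than the difference between the groups. That SD on the log2 scale was 0.59 for Pnpla2 (1428143_a_at), 0.60 for Mgll (1426785_s_at), 0.43 for Lipe and 0.47 for Lpl (1431056_a_at), against 0.18 for G0s2.

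A second pattern ran across arrays and not between the groups. Wild-type M125 was the highest of the 7 arrays on 9 of the 15 tested probe sets, of Pnpla2, Lipe, Mgll, Abhd5, Lpl and Dgat2. Over all tested probe sets it was the highest on 16%. G0s2 and Plin2 did not share this and were highest on wild-type M128. The droplet coat proteins Plin3, Plin4 and Plin5, which stabilise droplets in muscle, also peaked on M125. They were among the 6 of 12 tested droplet coat and structural genes with M125 highest, against 15.9% of all tested genes. Of the 10 tested other lipases and lipase regulators, M125 was highest for 1. Plin5 read 2864, 2864 and 2054 in the knockout against 2625, 6089, 4356 and 2735 in the wild type. Plin4 read 6727, 8469 and 7559 in the knockout against 6881, 13089, 9738 and 8009 in the wild type. The array M125 was the only one of its hybridization day and chip lot, so that mouse and day cannot be told apart for it. It was also 1 of 2 arrays with much Myl7. The other, knockout M10, was second highest for Pnpla2 (6964 on 1428143_a_at) and Lipe (836), and lowest on the brightest Mgll probe set (2237). The part of atrial muscle in the pattern was not tested. The pattern was noticed after the values were seen.

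**Figure D3:**
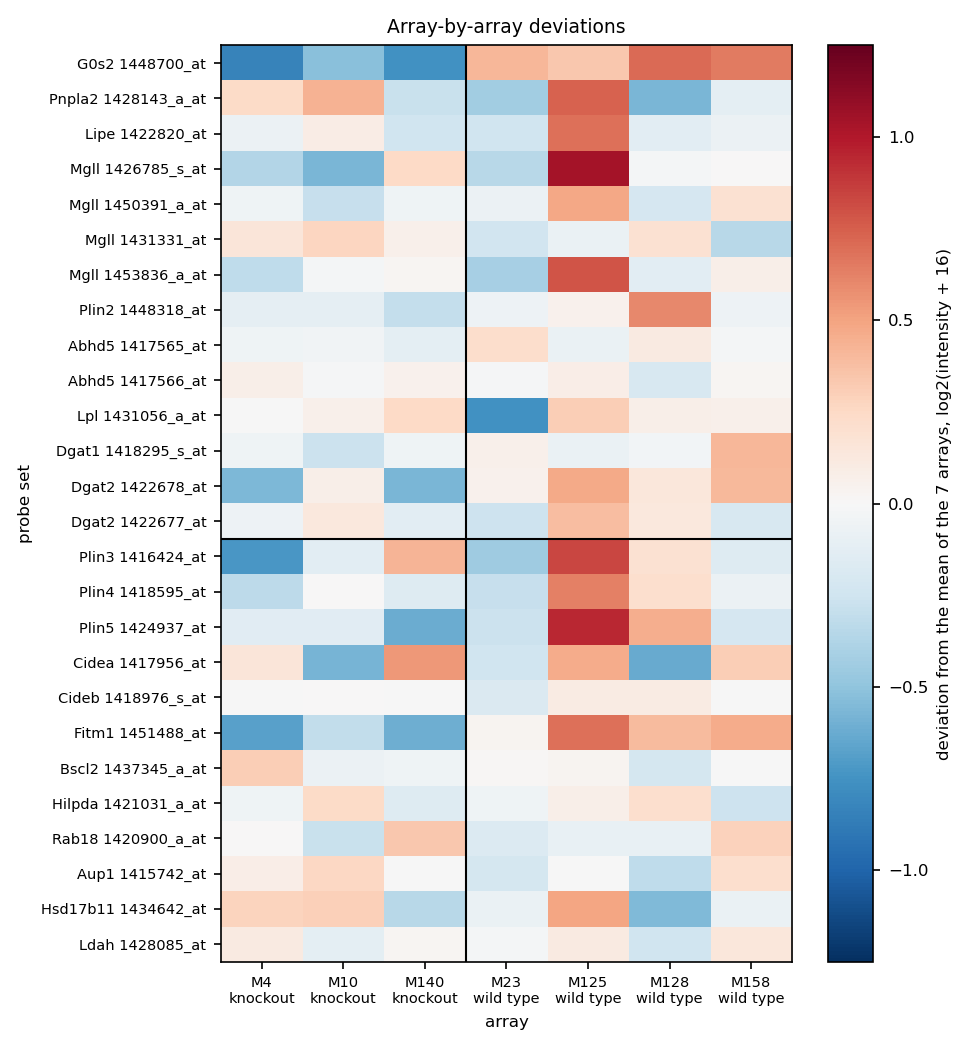
Deviation of each array (columns, knockout left of the vertical line and wild type right of it) from the mean of the 7 arrays on the scale log2(intensity + 16), for the 14 tested probe sets of the 9 genes below the upper limit (above the horizontal line) and the 12 tested droplet coat and structural genes (below it); red is higher and blue lower. G0s2 and Fitm1 are blue on all 3 knockout arrays and red or near 0 on all 4 wild-type arrays, and the M125 column is red for most lipase and Plin genes.

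Markers of fat cells were looked at because fat expresses many of these genes strongly. Of 11 adipocyte markers 8 are named on the array, and 4 of them, Adipoq, Lep, Cidec and Slc7a10, lay under the filter level on all 7 arrays. Adipoq, the fat cell hormone adiponectin, read 212, 419 and 191 in the knockout against 269, 269, 387 and 216 in the wild type. Car3 read 416, 770 and 298 in the knockout against 351, 447, 970 and 301 in the wild type, above the filter level on 2 arrays. Adipoq, Cidec, Car3 and Slc7a10 were, like G0s2, highest on M10 among knockout arrays and on M128 among wild-type arrays. Retn, Lep, Fabp4 and Pparg did not share this. The part of fat cells in the level of G0s2 was not tested. Cidec, a droplet protein of white fat, read 170 to 201 in the knockout and 189 to 207 in the wild type. The summed intensity of the list was 38014 to 41136 in the knockout and 39176 to 46500 in the wild type, most of it from Fabp4, which capillary endothelium also expresses. Retn read 1306 to 2049 in the knockout and 1446 to 1595 in the wild type. The brown fat list summed to 3297 to 6095 in the knockout and 3497 to 4981 in the wild type, and 3 of its 4 genes were tested. Its brightest members were Cidea and Dio2. Cidea, a droplet protein of brown fat that the heart also expresses, read 2517, 1512 and 3302 in the knockout against 1905, 3121, 1455 and 2797 in the wild type, with M140 and M125 highest. Dio2, an enzyme that activates thyroid hormone, read 1832, 489 and 1479 in the knockout against 387 to 472 in the wild type and was above the filter level on 2 arrays. The thermogenic protein Ucp1 read 572 to 653 in the knockout and 561 to 756 in the wild type.

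The groups overlapped in the summed intensity of each list of other cells, but single markers separated, all of them higher in the knockout. The endothelial list of 8 genes, led by Kdr and Egfl7, summed to 22168 to 23882 in the knockout and 17703 to 23727 in the wild type. Of its 8 genes 1, Vwf, had knockout arrays wholly above the wild-type arrays, against 5.29% of all tested genes. Vwf, the von Willebrand factor of vessel lining, read 4678, 5302 and 2950 in the knockout against 1350, 2792, 1407 and 1729 in the wild type. The groups overlapped for the other endothelial genes. Kdr and Egfl7 differed by -0.29 and -0.05, and the rest by 0.05 to 0.32. The macrophage list of 10 genes, led by Csf1r and Lyz2, summed to 32610 to 43249 in the knockout and 24953 to 39790 in the wild type. Of its 10 genes 4 lay wholly above in the knockout, Csf1r, Cd68, Cd163 and Fcgr3, and 0 wholly below, against 5.29% and 4.89% of all 8869 tested genes. The groups overlapped for the other macrophage genes, which differed by -0.05 to 0.38. Csf1r, the receptor for a macrophage growth factor, read 10895 to 12002 in the knockout and 7150 to 9336 in the wild type. The atrial list of 5 genes, led by Nppa and Myl4, summed to 48221 to 72557 in the knockout and 10008 to 75119 in the wild type. Nppa, the atrial natriuretic peptide, which the stressed ventricle also makes, read 37741 to 45540 in the knockout, where 2 arrays were at the upper limit, and 6717 to 32820 in the wild type. On knockout M4 and M140 Nppa made up most of the sum, at 44869 of 49800 and 45540 of 48221. The groups overlapped for the other atrial genes, which differed by -0.54 (Myl4) to 0.34 (Myl7). The part of these cells in the levels of G0s2 and its partners was not tested.

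The genes around the 9 were read through 5 lists of 80 genes, of which 60 are named on the array and 52 were tested. Of the 52, 1 had an adjusted p under 0.05 over all 8869 tested genes by limma, Ppargc1a, and it was lower. With hybridization day as a random block, whose correlation is estimated, 0 of the 52 passed (adjusted p = 0.0733 for Ppargc1a by limma). Over all tested genes that count was also 1, or 0.0113%. At an unadjusted p under 0.05, 6 of the 52 were lower and 4 higher, against 5.4% lower and 6.77% higher of all tested genes. The knockout arrays lay wholly below the wild-type arrays for 6 of the 52 and wholly above for 4, against 4.89% and 5.29% of all tested genes. The median difference over the 52 was -0.01, against -0.0027 over all tested genes. M125 was the highest array for 16 of the 52, against 15.9% of all tested genes.

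Of the droplet coat and structural proteins, 12 of 16 were tested, 1 was lower at an unadjusted p under 0.05 and 0 higher, with a median difference of 0.01. The one lower was Fitm1, which helps package triglyceride into droplets in muscle. It read 2987, 3861 and 3138 in the knockout, against 4915, 7749, 6307 and 6610 in the wild type. The groups did not overlap, and the difference was -0.93 ± 0.18 (adjusted p = 0.17 by limma). It was -1.003 within day 1. Plin5, which holds ATGL and ABHD5 at the droplet surface, differed by -0.53 ± 0.31 with overlapping groups (adjusted p = 0.553 by limma), and by -0.30 without wild-type M125. Aup1, a droplet and endoplasmic reticulum protein, differed by 0.20 ± 0.15 (adjusted p = 0.67 by limma).

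Of the other lipases and their regulators, 10 of 17 were tested, with 1 lower and 1 higher at an unadjusted p under 0.05 and a median of -0.05. Ces1d, a carboxylesterase that cleaves triglyceride in liver and fat, differed most of all 52 genes. Its probe set 1435370_a_at read 752, 1924 and 334 in the knockout, against 5863, 5455, 5061 and 6127 in the wild type. The knockout arrays differed widely among themselves and still lay well below the wild-type arrays. The difference was -2.81 ± 0.49 (adjusted p = 0.151 by limma), and without knockout M10 it was -3.44 (adjusted p = 0.0151 by limma). Without any 1 of M4, M140, M125, M128 and M158 it was -2.86 to -2.21, with an adjusted p of 0.122 to 0.604 by limma. Without wild-type M23 the brightest Ces1d probe set was 1449081_at instead, with a difference of -2.16 (adjusted p = 0.159 by limma). Over all 7 arrays the other Ces1d probe sets, 1449081_at and 1435371_x_at, differed by -1.96 and -1.58, also with groups that did not overlap. Carboxylesterase genes are close relatives whose transcripts such probe sets can share. Prkar1a, a regulatory subunit of the protein kinase A that activates lipases, read 11594, 7491 and 10165 in the knockout, against 5888, 5541, 6081 and 6837 in the wild type, a difference of 0.66 ± 0.17 (adjusted p = 0.233 by limma). Its second probe set, 1425550_a_at, differed by 0.66 as well, with groups that overlapped. Fabp4, a carrier of fatty acids, differed by -0.10 ± 0.07 (adjusted p = 0.64 by limma). Its other tested probe sets, 1451263_a_at and 1424155_at, differed by -0.13 and 0.19.

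Of the genes of lipoprotein lipase handling and lipoprotein uptake, 10 of 13 were tested, with 2 lower and 2 higher at an unadjusted p under 0.05 and a median of 0.01. Vldlr is a receptor that binds triglyceride-rich lipoproteins beside lipoprotein lipase. Its brightest probe set, 1434465_x_at, is of a kind that can bind related transcripts. It read 7809, 7998 and 10408 in the knockout, against 11816, 15631, 14940 and 14551 in the wild type. The groups did not overlap, and the difference was -0.71 ± 0.15 (adjusted p = 0.174 by limma). Vldlr probe set 1417900_a_at differed by -1.002 and 1442169_at by 0.03, both with overlapping groups. Cd36, the fatty acid transporter of the cell surface, differed by -0.24 ± 0.08 (adjusted p = 0.297 by limma), and its other 2 probe sets by -0.43 and -0.12. Apobec1, which edits the messenger RNA of apolipoprotein B, differed by 0.23 ± 0.08 (adjusted p = 0.321 by limma).

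Of the glycerolipid synthesis genes before the DGAT step, 11 of 21 were tested, with 0 lower and 1 higher at an unadjusted p under 0.05 and a median of 0.02. Gpd1, which makes glycerol 3-phosphate, differed by 0.38 ± 0.14 on its brightest probe set (adjusted p = 0.344 by limma), and its other 2 tested probe sets by -0.03 and 0.09. Gpam, the mitochondrial enzyme of the first acylation, read 14423, 11621 and 10323 in the knockout, against 14075, 14075, 15530 and 14702 in the wild type, a difference of -0.28 ± 0.12 (adjusted p = 0.417 by limma). Agpat5, of the second acylation, differed by -0.16 ± 0.08 (adjusted p = 0.474 by limma).

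Of the PPAR receptors, partners and coactivators, which drive many lipid droplet genes, 10 of 14 were tested, with 2 lower and 0 higher at an unadjusted p under 0.05 and a median of -0.18. Pparg was the only PPAR receptor among those tested, with a difference of 0.005. Ppara and Ppard were not tested. Ppargc1a, a coactivator of PPAR receptors and of mitochondrial genes, fell on its probe set 1456395_at, with 738, 833 and 1149 in the knockout against 4126, 4237, 3351 and 3153 in the wild type. The difference was -2.03 ± 0.18, with an adjusted p of 0.0341 over genes and of 0.0531 over probe sets, both by limma. The call over genes ended without any 1 of knockout M4 (adjusted p = 0.325 by limma) and wild-type M23, M125, M128 and M158 (adjusted p = 0.119, 0.119, 0.145 and 0.127 by limma), with differences of -1.90, -1.98, -1.96, -2.08 and -2.10 in that order. It also ended with quantile normalization (-2.05, adjusted p = 0.0514 by limma) and with day as a random block (-1.95, adjusted p = 0.0733 by limma) or a fixed block (-1.53, adjusted p = 0.218 by limma). The other 4 Ppargc1a probe sets differed by -0.50 to -0.81. The groups overlapped on 1434099_at, 1434100_x_at and 1437751_at. They did not on 1460336_at, which was above the filter level on 3 arrays. Rxrg, a partner of PPAR receptors that is prominent in muscle, read 1901, 2315 and 1851 in the knockout, against 2358, 2734, 2612 and 2689 in the wild type, a difference of -0.36 ± 0.13 (adjusted p = 0.323 by limma). Ppargc1b, a relative of Ppargc1a, differed by -0.37 ± 0.19 (adjusted p = 0.489 by limma).

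**Figure D4:**
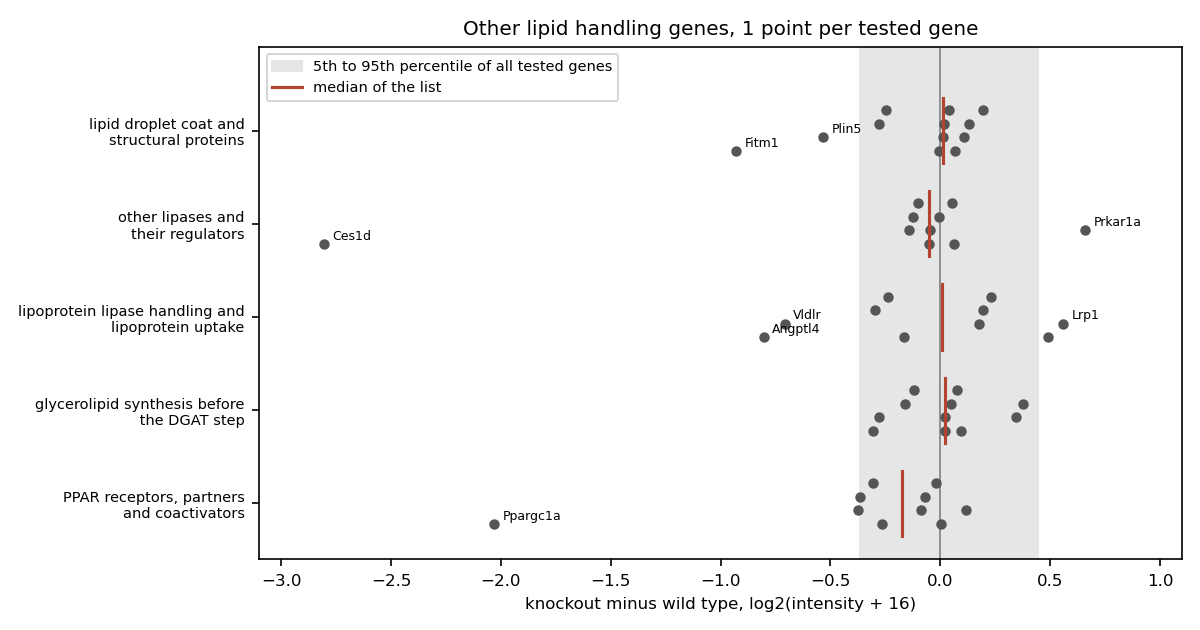
Difference between knockout and wild type (horizontal axis, log2(intensity + 16)) of each tested gene in the 5 lists (rows), with the median of each list as a red line and the range from the 5th to the 95th percentile of all 8869 tested genes, -0.366 to 0.445, as a grey band. The list medians lie between -0.18 and 0.02, and single genes such as Ces1d, Ppargc1a and Fitm1 lie far to the left.

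The genes whose pattern over the 7 arrays was most like that of G0s2 were Cenpv (Pearson r = 0.99), Entpd5 (0.99), Sema4b (0.99), Mrps28 (0.98) and Magix (0.97). All 5 had knockout arrays wholly below the wild-type arrays, and these values share the group difference and the arrays themselves. When each array was taken as its deviation from its group mean, the closest genes were Dhodh (r = 0.96), Tspo2 (0.95), Trim21 (0.95), Tlcd2 (0.94) and Tmem267 (0.94), and none of the first 5 was among them. Of the 9 genes, Dgat2 (1422678_at) was nearest to G0s2 over the 7 arrays (r = 0.82), followed by Plin2 (0.65), and Pnpla2 (1428143_a_at) had r = -0.32. In deviations from the group means these values were 0.39 for Dgat2, 0.49 for Plin2 and -0.34 for Pnpla2. The values farthest from 0 were negative, at -0.73 for Abhd5 (1417566_at) and -0.65 for Mgll (1450391_a_at). All these values are descriptions over 7 arrays.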

How the data were processed

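Left ventricular RNA of 7 mice was measured on 1 MOE430A array each, per the file headers. The deposited table holds the authors' intensities on a linear scale, with no statement in the labels or headers of how they were background-corrected or scaled. The deposited experiment sheets were read only for the hybridization days, coded 1 to 4, the chip lots and whether a comment was entered. The days coincided with 4 chip lots. Only the sheet of wild-type M23 held a comment, and its content was not used.

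Without 64 control probe sets, 22626 remained. Values were taken as log2(intensity + 16). Probe sets above the 40th percentile of their array on at least 3 arrays were tested (13836). Genes were read by their brightest tested probe set (8869), and names came from a platform table where it gave a single gene. Knockout was compared with wild type by limma 3.58.1 in R 4.3.3 (lmFit, then eBayes with a variance trend; two-sided tests). P-values were adjusted by Benjamini-Hochberg over the tested probe sets, or over the genes, at a threshold of 0.05. An eBayes step on the genes alone was run first and replaced after its counts were seen by the fit over probe sets; it stays as an alternative. The fit was tested on simulated data. The spread behind the p-values mixes mouse and day, and precision is limited by 3 and 4 arrays. Only day 1 held both groups. Knockout M4 and M10 were alone on day 3, wild-type M23 and M158 on day 4 and wild-type M125 on day 2. Outside day 1, group and day with its chip lot therefore cannot be told apart, and the group differences carry both. Mouse numbers pair nothing.

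The members and the gene lists were chosen with earlier results of these data known. Named were all probe sets of the 9 genes, the 3 genes with the smallest p of each list, the 2 brightest of each marker list with Adipoq, the 5 genes most like G0s2 by each measure, and Ppargc1a and Nos3. Plin3, Plin4, Angptl4, Hsd17b11, Ucp1, Cidec, Car3, Lep, Slc7a10, Pparg, Myl7, Vwf, Cd68, Cd163 and Fcgr3 are outside it. They were picked with their values in view. Alternatives were offsets of 1 and 64, array weights, a 60th percentile filter or none, quantile normalization, no variance trend, day as a fixed or random block, normexp (offset 50), the mean of all probe sets, and leaving out each array. Leaving out M10 with M125 and M23 with M158 was added after the data were seen. Promoter windows are RefSeq's, build GRCm38.p6, and protein sequences were not used here.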

Additional observations from a re-analysis of the deposited data

How the results depend on the processing

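The G0s2 difference of -1.23 kept its sign in all 16 alternatives and ranged from -1.47 (hybridization day as a fixed block, which rests on M140 and M128 alone) to -1.17; leaving out 1 array gave -1.33 to -1.17. Among the other 8 genes, at least 1 alternative turned the sign for Lipe, each probe set of Mgll, Lpl 1431056_a_at, 1417566_at of Abhd5, 1422677_at of Dgat2 and 1428591_at of Pnpla2. Mgll 1426785_s_at, for example, ranged from -0.74 to 0.28. For the 15 named genes of the lists, Ppargc1b was reversed with day as a fixed block (0.29), and no other changed sign. No paired analysis was possible because no mouse number occurs in both groups.

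The count of probe sets with an adjusted p under 0.05 by limma was 0. It was 619 with array weights, 1 with the 60th percentile filter, 1 with the fixed day block, 2 without M10 and M125, 1 without M23 and M158, and 0 to 79 when 1 array was left out (79 without knockout M10, 27 without knockout M140). At an unadjusted p under 0.05 the count of probe sets was 1636, 3258 with array weights and 796 to 1633 when 1 array was left out (796 without knockout M4). The count of genes was 1, also with eBayes on the genes alone. It was 407 with array weights, 11 with the mean of all probe sets, 3 without the variance trend, 0 with quantile normalization or the random day block, 5 without M10 and M125, 2 without M23 and M158, and 0 to 74 when 1 array was left out (74 without knockout M10, 16 without knockout M140). Of the list genes, 1 passed. With array weights 7 passed: Apobec1, Cd36, Ces1d, Fitm1, Ppargc1a, Prkar1a and Vldlr. With quantile normalization, either day block, or without either pair of arrays 0 passed, and 0 to 2 when 1 array was left out (2 without knockout M10). At an unadjusted p under 0.05, 6 list genes were lower, 10 with array weights or without M23 and M158, and 5 to 9 when 1 array was left out. At that p 4 were higher, 2 with the fixed day block or without M23 and M158, and 1 to 5 when 1 array was left out. The causes of these changes were not tested. Lpl 1415904_at, at the upper limit of the scale, sets no limit on a change of Lpl.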

Other observations

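Angptl4, a secreted inhibitor of lipoprotein lipase that fatty acids induce through PPAR receptors, read 1336, 1190 and 1278 on knockout M4, M10 and M140, against 1319, 3609, 3327 and 1541 in wild-type mice M23, M125, M128 and M158. Both high arrays were wild type, the other 2 wild-type arrays lay at or near the knockout arrays, and the difference was -0.80. Hsd17b11, a steroid dehydrogenase that sits on lipid droplets, read 7814, 7898 and 5042 in the knockout, against 6094, 9057, 4383 and 6066 in the wild type, so that, like Pnpla2 (1428143_a_at), it was highest on M125 and lowest on M128. Plin3, a coat protein of small droplets, read 1974, 2991 and 4409 in the knockout, against 2405, 5829, 3743 and 2916 in the wild type. Equal values on at least 2 arrays stood in 6 of the 15 tested probe sets of the 9 genes, such as Plin2 at 5308 on wild-type M23 and M158, and in 5751 of all 13836 tested probe sets, a like share.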
